A study of Mus musculus with 6 samples.

Results

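The genes described here encode the proteins of the cytosolic ribosome, together with close copies of some of them. They were taken by name: symbols that start with Rpl or Rps followed by a number, plus Rplp0, Rplp1, Rplp2 and Rpsa. Kinase genes named Rps6k, Rps19bp1 and names marked -ps were left out. This gave 91 of the 31641 genes in the table, and all 91 passed the filter on low counts. Large subunit genes number 46 and small subunit genes 33, and these 79 are called canonical below. The other 12 are paralogs, which resemble a canonical gene but carry a name of their own, such as Rpl22l1, Rpl39l and Rps27l. GENCODE annotates 6 of the 91 as pseudogenes, namely Rps3a2 and Rps3a3 among the small subunit genes and Rpl37rt, Rps4l, Rpl32l and Rpl6l among the paralogs.

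Poly(A)-selected RNA was sequenced from E14 cells, a mouse embryonic stem cell line, in 6 libraries. In the 3 KD libraries the cells carried a Nat10 knockdown and received doxycycline (Dox); the labels do not name the construct. In the 3 CON libraries Nat10 was wild type and the cells had no Dox. Nat10 is an acetyltransferase that modifies cytidines in RNA, and the series title asks how it bears on pluripotency. Because every KD library had Dox and no CON library did, the drug and the knockdown cannot be told apart. The labels do not name separate cultures, clones or a non-targeting Dox control, so a p-value here reflects only how much these libraries vary, which may be technical variation.

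A cytosolic ribosome joins a small subunit, which reads the message, to a large subunit, which makes the peptide bond. Each holds ribosomal RNA and a set of proteins that are mostly needed in equal numbers, and most of these proteins are encoded by a single active gene. Their messages belong to the most abundant in growing cells and start with a run of pyrimidines, the terminal oligopyrimidine (TOP) motif, through which their translation responds to growth signals. Paralogs are often retrocopies or tissue-restricted relatives that can take the parent's place in the ribosome.

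Nat10 counts were 1100, 1164 and 1050 in KD, against 4960, 5496 and 4877 in CON, with no overlap. The libraries held 33770755 to 39524273 counts each. Levels are given as CPM, a gene's counts set against a common library total, on library sizes scaled by the trimmed mean of M-values (TMM), and fold changes are KD over CON on the log2 scale with their standard error (SE). Stem cell markers were detected in both groups but moved with the comparison: all 8 (Pou5f1, Nanog, Sox2, Zfp42, Esrrb, Klf4, Dppa5a and Utf1) were lower in KD, and their summed level ranged from 2066 to 2205 CPM in KD and from 5839 to 5903 CPM in CON. Markers of other cells stayed far below that. The 5 fibroblast markers with a row summed to 24.8 to 28.4 CPM in KD and 13.4 to 16.6 CPM in CON, with Col3a1 and Postn below 1 CPM. Col1a2 (log2 3.44) and Col1a1 (0.82) were higher in KD. Thy1 was lower, with means of 5.46 CPM in KD and 10.9 CPM in CON. Primitive endoderm markers (6 genes) summed to 13.1 to 15.2 CPM in KD and 14.4 to 15.6 CPM in CON. Within this sum, at low levels, Sox7 (log2 -3.73) was lower in KD, while Foxa2 (1.85) and Pdgfra (0.78) were higher. Gata4, which made up most of the sum, Sox17 and Gata6 did not pass. Neuronal markers (5 with a row) summed to 81.3 to 85.5 CPM in KD and 161 to 163 CPM in CON; Stmn2 (log2 -2.12) and Tubb3 (-2.72) were lower in KD, while Map2 (1.47) and Syn1 (0.61) were higher. The part of these shifts in the results was not tested, and in bulk RNA fewer cells of a type and less RNA per cell cannot be told apart.

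Messages for ribosomal proteins were lower in KD almost without exception, by a modest and rather even amount. Of the 46 large subunit genes, 45 fell and the remaining gene, Rpl37a, missed the threshold; their median log2 fold change was -0.49. All 33 small subunit genes fell, with a median of -0.53. Over the whole table, 30.8% of the 18019 genes tested were lower in KD and 32.2% were higher (edgeR's quasi-likelihood test, Benjamini-Hochberg adjusted p under 0.05), with a median of 0.02. In 77 of the 79 canonical genes every KD library lay below every CON library, which was true of 32.8% of all genes tested. The changes were of ordinary size: 17 of the 79 were at least 1.5-fold lower, against 17.3% of all genes tested. Fold changes of canonical genes ran from -0.95 to 0.08, and the central range between quartiles was -0.58 to -0.38.

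**Figure D1:**
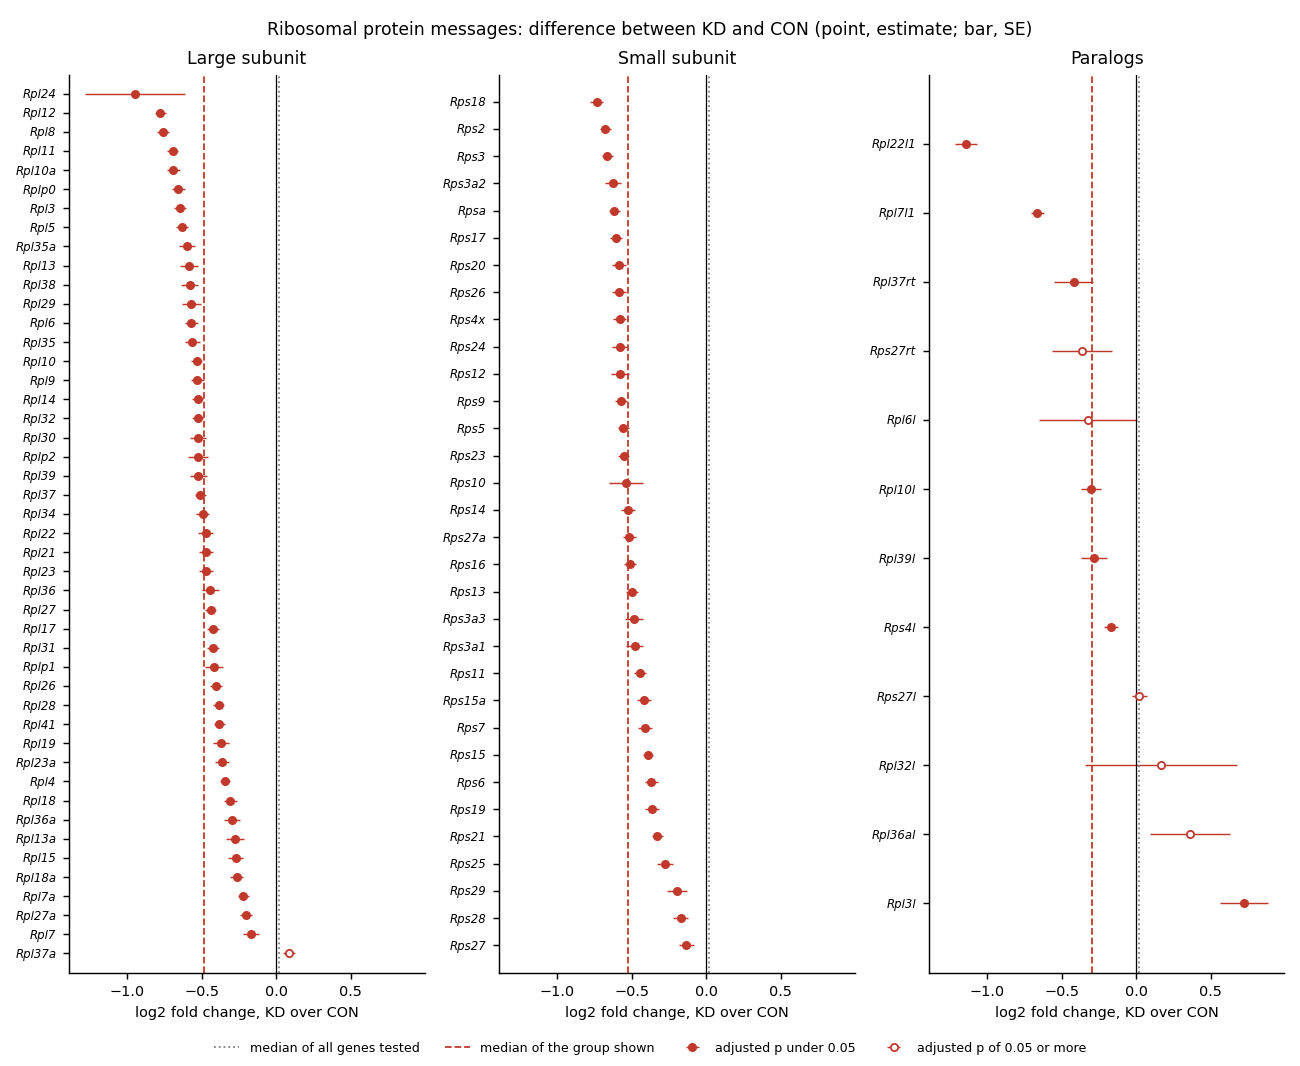
Log2 fold change, KD over CON, of large subunit genes, small subunit genes and paralogs, each point with its SE. Filled points passed an adjusted p of 0.05, the dashed line is the median of the group shown and the dotted line the median of all genes tested; the canonical genes lie left of 0 except Rpl37a, and the paralogs scatter from -1.14 to 0.72.

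The extent of the fall rests on how libraries are scaled. TMM set factors of 1.08 to 1.084 for KD and 0.922 to 0.926 for CON. Without it, on library size alone, the median of all genes was 0.25, which is 0.23 higher. Of the 18019 genes tested, 3535 were then lower in KD and 8275 higher. On that scale 36 large subunit genes fell, 1 (Rpl37a) rose and 9 missed the threshold (median -0.26). Of the small subunit genes 29 fell and 4 missed it (median -0.30). Relative to the median of all genes the canonical median was about the same under both scalings. The deposited FPKM values, which divide counts by gene length and library total, follow the library size scale. In the authors' deposited comparison the fold change runs CON over KD. Its median was 0.50 for the large subunit, 0.54 for the small subunit and 0.30 for paralogs. There 44 large subunit genes, 33 small subunit genes and 6 paralogs had a false discovery rate under 0.05 with a positive sign. With a negative sign 1 paralog passed. The share of all genes past that rate in the authors' comparison is not given here.

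As a part of all counts, canonical messages made up 5.90%, 5.82% and 5.80% in KD, against 7.13%, 7.03% and 7.12% in CON. This share uses no TMM factor but divides by the library total, so it follows the library size scale. The means were 5.84% ± 0.057 in KD and 7.09% ± 0.055 in CON (SD, n = 3 each), and the groups did not overlap. An exact two-sided permutation test gave p = 0.1, the smallest that 3 against 3 allows. Measured as a part of summed FPKM, which weighs each message per length, the means were 12.3% ± 0.12 in KD and 14.6% ± 0.094 in CON. Large subunit messages held 3.25% ± 0.029 of counts in KD and 3.87% ± 0.026 in CON, while small subunit messages held 2.59% ± 0.028 in KD and 3.22% ± 0.029 in CON. The small subunit sum thus lost slightly more. The log2 ratio of large to small subunit counts was 0.32, 0.33 and 0.32 in KD and 0.26, 0.27 and 0.26 in CON, without overlap. The difference of 0.06 in this ratio, a measure added after the values were seen, was 0.03 without Rps2 and Rpsa, the largest small subunit contributors. Paralogs together held 0.0999% ± 0.0022 of counts in KD and 0.103% ± 0.00095 in CON.

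**Figure D2:**
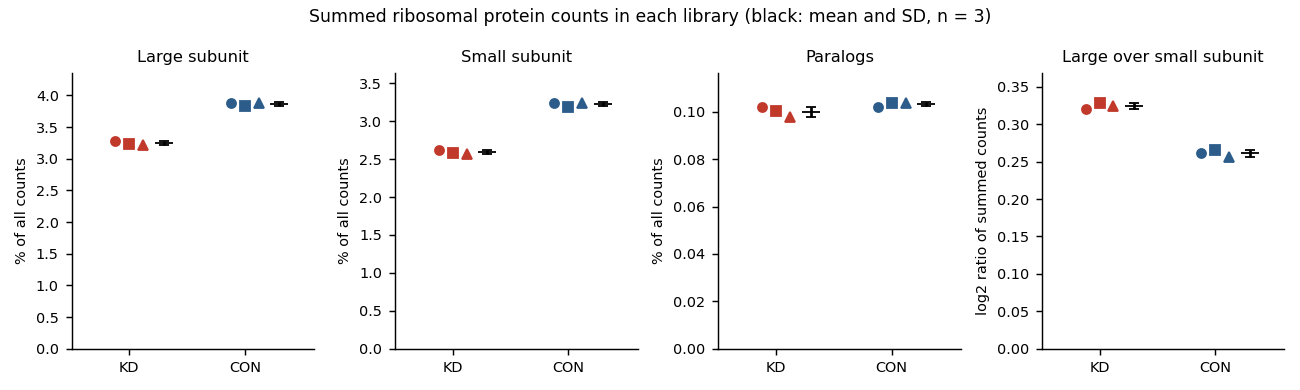
Summed counts of the large subunit genes, small subunit genes and paralogs as a percentage of all counts, and the log2 ratio of large to small subunit counts, per library (circle, square and triangle are replicates 1, 2 and 3; black is the mean and SD, n = 3). The KD libraries lie below the CON libraries for both subunits and above them in the ratio, while the paralog share differs little.

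Among large subunit genes measured on more than a few counts, Rpl12 and Rpl8 fell most. Rpl12, at the base of the stalk that recruits elongation factors, stood at 1269, 1280.2 and 1187 CPM in KD, against 2096, 2138 and 2174 CPM in CON, a 1.72-fold lower level (log2 -0.78, SE 0.039, edgeR adjusted p = 1.86e-10). Rplp0, the stalk's scaffold, had 1662, 1620.1 and 1486 CPM in KD and 2428, 2571 and 2526 CPM in CON (log2 -0.66, SE 0.044, edgeR adjusted p = 4.19e-09). In both genes the lowest CON library was far above the highest KD library. The acidic proteins that hang from the stalk, Rplp1 and Rplp2, fell less, by 0.42 and 0.52 on the log2 scale. Rplp1 was the most abundant canonical message per length, with 2511 ± 277 FPKM in KD and 2868 ± 10.1 FPKM in CON (SD, n = 3 each).

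Rpl8, which reaches close to the peptidyl transferase centre, had 1346, 1310.0 and 1230.1 CPM in KD, against 2150.0, 2222 and 2213 CPM in CON, again far apart (log2 -0.76, SE 0.040, edgeR adjusted p = 3.12e-10). Rpl10a, the mobile protein of the stalk where spent tRNA leaves, fell by 0.69 on the log2 scale. Rpl11 and Rpl5 travel together with the smallest rRNA into the large subunit and, when free, bind Mdm2. Rpl11 had 438, 443 and 455 CPM in KD and 734, 716 and 715 CPM in CON (log2 -0.70, SE 0.038, edgeR adjusted p = 4.70e-10). Rpl5 had 732, 729.7 and 789 CPM in KD and 1189.6, 1137 and 1161 CPM in CON (log2 -0.63, SE 0.041, edgeR adjusted p = 3.36e-09). This pair lay close together, and Rpl23, another Mdm2-binding protein, fell less, by 0.47.

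Other large subunit genes fell by intermediate amounts. Rpl10, an X-linked gene whose protein joins late in assembly, fell by 0.54 on the log2 scale, and Rpl38, which mouse mutants link to skeletal patterning, fell by 0.58. Rpl39, a short protein of the exit tunnel, fell by 0.52, and Rpl22, which T cell development needs in mice, by 0.48. Rpl36 fell by 0.44. Rpl24, a protein of the bridge between the subunits, had the lowest estimate, -0.95, but only 27, 20 and 17 counts in KD and 26, 42 and 37 in CON, so its groups lie close. It lost its call without KD-2, KD-3, CON-2 or CON-3 (edgeR adjusted p between 0.051 and 0.079). Its main transcript shares 71.5% of its exonic bases with the readthrough gene Gm28037 on the same strand. Rps10 (80.3%, with RPS10-NUDT3) and Rpl13a (59.3%, with Gm45713) overlap others in the same way. No source used here says how reads in such overlaps were counted.

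The smallest changes in the large subunit were those of Rpl37a, Rpl7 and Rpl27a. Rpl37a, a small zinc-binding protein, had 439, 420.2 and 413 CPM in KD, against 404, 396 and 402 CPM in CON. It was the only canonical gene whose 3 KD libraries all lay above the CON libraries, yet the difference did not pass (log2 0.08, SE 0.040, edgeR adjusted p = 0.088). It was called higher on library size alone (log2 0.31) and without KD-3 (log2 0.09, edgeR adjusted p = 0.011). Rpl7, which has a long basic helix that contacts rRNA, had 706, 699 and 799 CPM in KD and 869, 806 and 806 CPM in CON (log2 -0.17, SE 0.052, edgeR adjusted p = 0.0095). KD-3 came close to CON there, and without KD-2 the call was lost (adjusted p = 0.053). Rpl27a fell by 0.20.

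In the small subunit the largest falls were in Rps18, Rps2 and Rps3. Rps18, of the subunit's head, had 792, 749 and 722 CPM in KD, against 1232, 1245 and 1288 CPM in CON (log2 -0.74, SE 0.042, edgeR adjusted p = 7.33e-10). Rps2, at the entry of the message channel, was the most abundant canonical message by counts, with 3189, 3087 and 3015 CPM in KD and 4847, 4952 and 5057 CPM in CON (log2 -0.68, SE 0.036, edgeR adjusted p = 3.02e-10). Rps3, its neighbour at the entry, which also acts in DNA repair, had 1101, 1070.4 and 1123 CPM in KD and 1692, 1742 and 1784 CPM in CON (log2 -0.66, SE 0.038, edgeR adjusted p = 7.15e-10). None of these 3 genes showed overlap between groups. Rpsa, whose protein is also known as a laminin receptor, fell by 0.62 on the log2 scale, as did the pseudogene copy Rps3a2. Rps3a2 shares 90.2% of its 50-base windows with other genes, mostly Rps3a1, so its counts are uncertain.

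Rps26, which sits beside the message at the exit of the channel, fell by 0.58, and Rps14, whose reduced dosage causes a form of anaemia in people, by 0.53. Rps27a is made as a fusion to ubiquitin and fell by 0.52. Rps15 was second in the small subunit per length, with 1426 ± 19.7 FPKM in KD and 1595 ± 21.9 FPKM in CON, and fell by 0.39. Rps6, the substrate of the Rps6k kinases, and Rps19, which is often mutated in Diamond-Blackfan anaemia, fell less than most, by 0.37 and 0.36. The 3 smallest falls belonged to Rps27, Rps28 and Rps29. Rps27, a zinc-binding protein, had 245, 242 and 264 CPM in KD, against 293, 262 and 268 CPM in CON. It was the only canonical gene whose groups overlapped (log2 -0.13, SE 0.051, edgeR adjusted p = 0.033). Its call was lost without KD-1, without KD-2 or without CON-1 (edgeR adjusted p of 0.069, 0.12 and 0.14). Rps28 fell by 0.17 and Rps29 by 0.20, and the call of Rps29 was lost without CON-1 or CON-2 (edgeR adjusted p of 0.066 and 0.070).

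**Figure D3:**
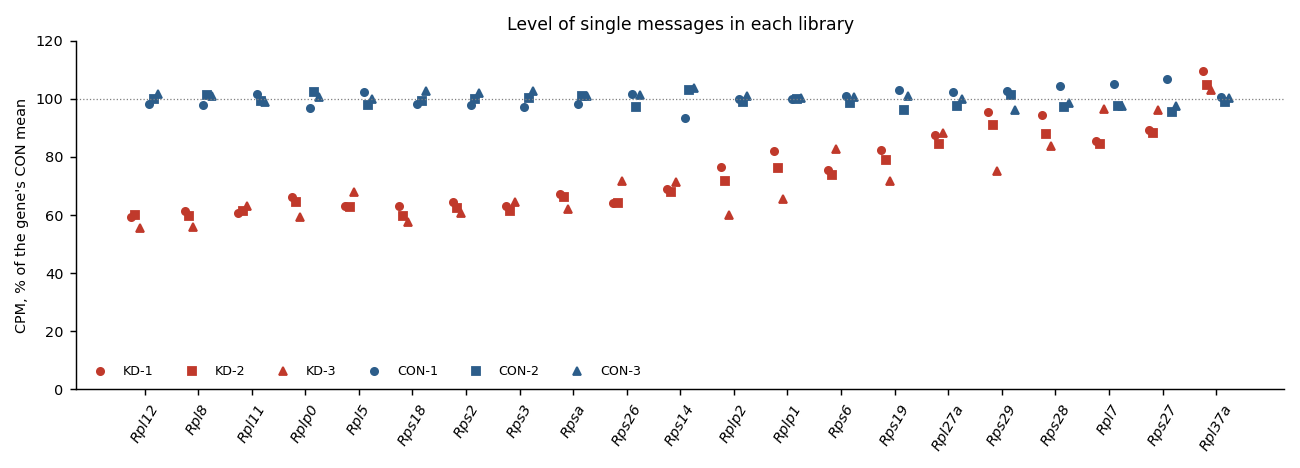
CPM of single canonical messages in each library as a percentage of the gene's CON mean, KD left of CON within each gene (circle, square and triangle are replicates 1, 2 and 3). KD libraries lie lowest for Rpl12, Rpl8 and Rps18, they overlap CON for Rps27, and all KD libraries lie above CON for Rpl37a.

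KD-3 departed from KD-1 and KD-2 in single messages, though no more widely than among other abundant genes. Its log2 level set against their mean had an SD of 0.14 over the canonical genes, against 0.15 over 2561 genes of at least 100 CPM. The departure ran from -0.31 to 0.23 over the 79, with a median of 0.02, and 34 were lower in KD-3. It ran from -0.68 to 0.37 over the 2561 genes. More than 0.2 lower were 10 of the 79, led by Rps29 (-0.31), Rplp2 (-0.31), Rps12 (-0.29) and Rplp1 (-0.27). The share past 0.2 among the 2561 genes was not counted. Over the 79 genes this departure had Spearman's rho of -0.35 with the GC content of the longest annotated transcript. The rho was -0.56 over the 46 large subunit genes and -0.08 over the 33 small subunit genes. These are correlations across genes of the same libraries, given as a description. The fold change itself varied little with GC content (rho 0.04), with gene length (-0.19) or with the CON level in FPKM (-0.09).

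The start sites of these genes were looked at because TOP messages begin in a pyrimidine run and the members moved together. RefSeq windows on GRCm38.p6, from 250 bases before to 50 after the start, were at hand for 67 of the 91 members (79 windows). The core CTTTC, searched on the sense strand within 20 bases each side of the start, was found in 26.9% of 67 canonical windows (35% of large and 14.8% of small subunit windows) and in 5.49% of all 32851 windows. CCGGAAG, searched on both strands over the 300 bases, was in 37.3% of canonical windows, 16.7% of paralog windows and 8.86% of all windows. AAGATGGC, on both strands, was in 10.4% of canonical windows, 8.33% of paralog windows and 2.75% of all windows. Below are 30 bases around the start of genes with strong, intermediate and weak changes and of 2 paralogs, with the transcript beginning at base 16 and CTTTC in capitals.
Rpl12, chr2:32961697-32961726, plus strand: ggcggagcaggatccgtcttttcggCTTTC
Rps18, chr17:33955651-33955680, minus strand: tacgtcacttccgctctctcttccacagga
Rpl11, chr4:136053379-136053408, minus strand: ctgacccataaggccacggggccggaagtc
Rpl38, chr11:114668565-114668594, plus strand: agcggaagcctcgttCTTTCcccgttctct
Rps28, chr17:33824548-33824577, minus strand: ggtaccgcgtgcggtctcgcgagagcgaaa
Rps27, chr3:90213634-90213663, minus strand: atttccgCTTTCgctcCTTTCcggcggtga
Rpl37a, chr1:72711245-72711274, plus strand: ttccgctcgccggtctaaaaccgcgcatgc
Rpl22l1, chr3:28805493-28805522, plus strand: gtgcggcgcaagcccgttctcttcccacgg
Rps27l, chr9:66946071-66946100, plus strand: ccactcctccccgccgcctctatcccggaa
CTTTC appeared in the strongly lowered Rpl12 and in the hardly lowered Rps27 alike. The search also took hits before the start, as in Rps27, and Rps18 begins in a pyrimidine run without the core. A split by CTTTC therefore does not separate TOP messages from others. The 18 canonical genes with the core had a median log2 fold change of -0.47 (from -0.78 to -0.13), and the 39 without it had -0.51 (from -0.95 to 0.08). The 24 genes with CCGGAAG had a median of -0.50, against -0.51 in the 33 without it. The 5 genes with AAGATGGC had a median of -0.42, against -0.52 in the 52 without it.

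Set against the ribosomal protein pool itself, most canonical genes stayed close to it, and some departed. For this comparison each gene was fitted with the summed canonical counts of its library as the library size, so 0 means a change equal to that of the pool. Because the pool fell, 62.8% of all genes tested were then higher in KD and 10.5% lower. Canonical genes are shares of the pool, so a rise of some implies a fall of others. The quartiles of their relative log2 fold change were -0.07 and 0.12. Of the 79 canonical genes, 23 were higher than the pool, 12 were lower and 44 did not pass. Above it were 15 large and 8 small subunit genes, and below it 7 large and 5 small subunit genes. Those below included Rpl3, Rpl5, Rpl8, Rpl10a, Rpl11, Rpl12, Rplp0, Rps2, Rps3, Rps18 and Rpsa. Without KD-3 the number below was 19, and the share of all genes lower in that fit is not given here. Of the 12 paralogs, 6 were higher than the pool, led by Rpl3l (1.23), Rpl36al (0.87) and Rps27l (0.53), and Rpl22l1 and Rpl7l1 were lower.

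Rpl37a showed the largest departure of a canonical gene. Of every 1000 canonical counts it held 8.03, 7.83 and 7.73 in KD, against 5.25, 5.20 and 5.21 in CON (relative log2 fold change 0.59, SE 0.041, edgeR adjusted p = 1.07e-09). Rps27 held 4.48, 4.51 and 4.93 in KD, against 3.82, 3.44 and 3.47 in CON (relative log2 fold change 0.38, edgeR adjusted p = 6.56e-06). Both stood apart between groups on this scale. At the other end Rpl12 held 23.2, 23.9 and 22.2 in KD, against 27.3, 28.1 and 28.2 in CON (relative log2 fold change -0.27, edgeR adjusted p = 1.10e-05). Rpl8 followed with -0.25 and Rps18 with -0.23. Rps2 alone held 57.4 ± 0.963 of every 1000 canonical counts in KD and 64.5 ± 1.32 in CON (SD, n = 3 each).

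**Figure D4:**
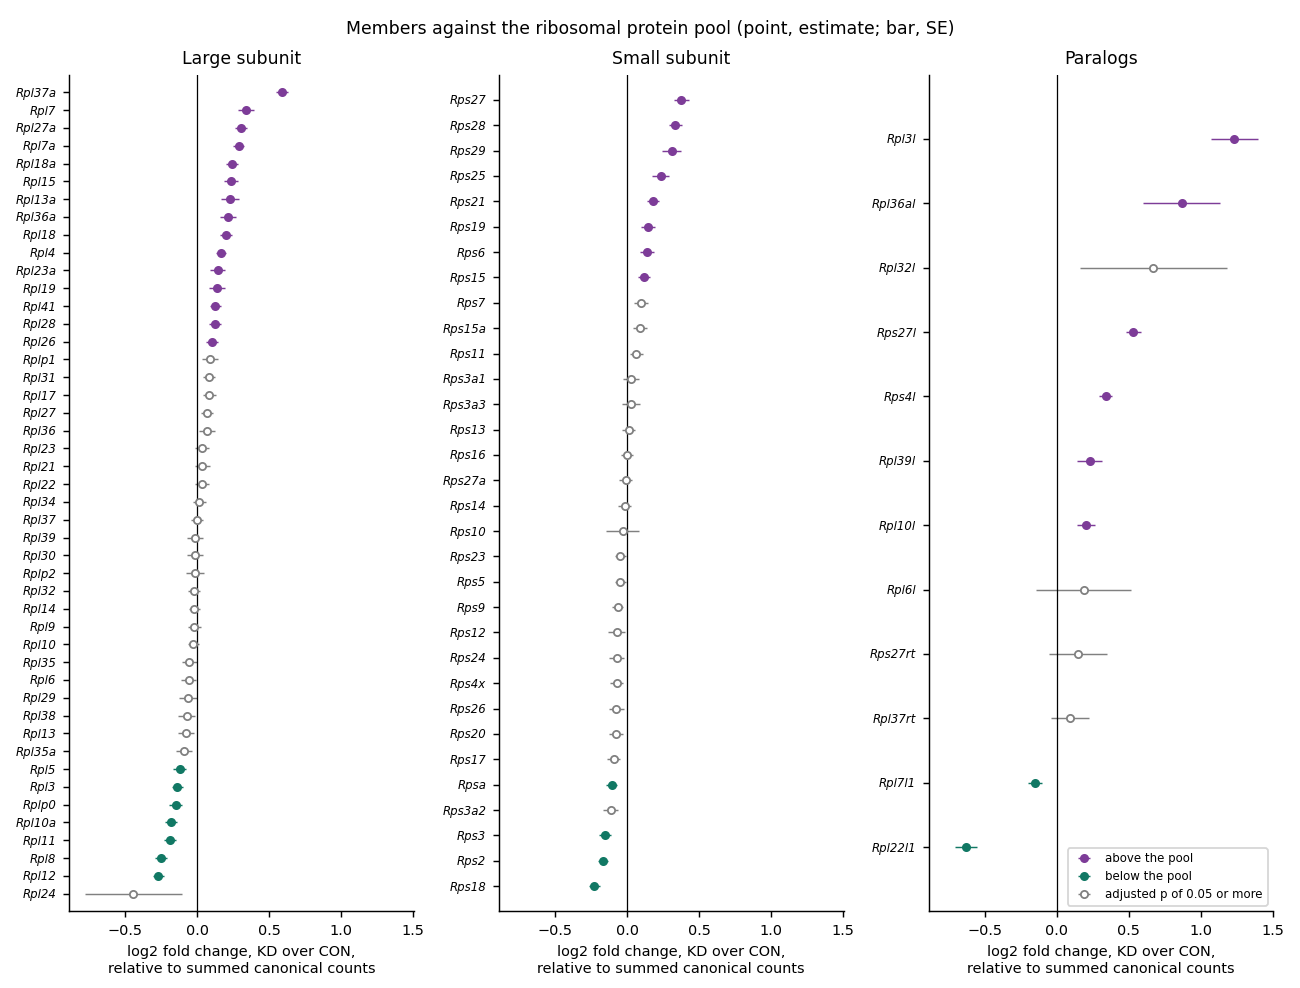
Log2 fold change, KD over CON, of members relative to the summed canonical counts, each with its SE; purple points were above the pool, green points below it and open grey points did not pass an adjusted p of 0.05. Rpl37a (0.59) leads the canonical genes above the pool, Rpl12 (-0.27) leads those below it that passed, and the paralogs spread more widely.

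Paralogs did not follow one course: 6 fell, 1 rose and 5 did not pass, and on library size alone 2 fell and 2 rose. Among all genes tested 30.8% fell and 32.2% rose, and on library size alone 3535 of 18019 fell and 8275 rose. Rpl22l1, the counterpart of Rpl22, fell most of all 91 members. It had 18.2, 18.8 and 20.4 CPM in KD, against 44.9, 41.6 and 40.1 CPM in CON, a 2.20-fold lower level (log2 -1.14, SE 0.072, edgeR adjusted p = 2.41e-09), with a wide gap between groups. Rpl7l1, a relative of Rpl7 that acts in ribosome assembly, had 147, 153 and 159 CPM in KD, against 245, 242 and 241 CPM in CON (log2 -0.66, SE 0.044, edgeR adjusted p = 4.18e-09). Both were also lower than the canonical pool, by relative log2 fold changes of -0.63 and -0.15.

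Rpl3l, the paralog of Rpl3 known from heart and skeletal muscle, was the only member that rose. Its counts were 193, 218 and 188 in KD, against 99, 89 and 119 in CON, and its level was 1.65-fold higher (log2 0.72, SE 0.16, edgeR adjusted p = 0.0012). The groups did not overlap, but the level was low, with 3.26 ± 0.20 FPKM in KD and 1.69 ± 0.34 FPKM in CON (SD, n = 3 each). None of its 50-base windows occurs in another gene. Under the alternative settings and with each library left out in turn, its log2 fold change stayed between 0.59 and 0.95 with an adjusted p under the threshold.

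Rpl10l, a retrocopy of X-linked Rpl10 that male germ cells use, had 61.1, 59.3 and 50.5 CPM in KD, against 70.2, 69.7 and 71.5 CPM in CON (log2 -0.31, SE 0.067, edgeR adjusted p = 0.00092). Rpl39l, which replaces Rpl39 in sperm precursors, had 12.8, 12.4 and 12.3 CPM in KD, against 14.9, 16.4 and 14.4 CPM in CON (log2 -0.28, SE 0.087, edgeR adjusted p = 0.011). Both groups stood apart in these genes, though neither passed on library size alone (-0.08 and -0.05), and Rpl39l lost its call without CON-2 (edgeR adjusted p = 0.064). Rps4l, annotated as a transcribed pseudogene, was the most abundant paralog, with 557, 539 and 504 CPM in KD and 573, 616 and 611 CPM in CON (log2 -0.17, SE 0.046, edgeR adjusted p = 0.0045). Its estimate was 0.06 on library size alone. Rpl37rt, another transcribed pseudogene, fell by 0.42 on 158 to 210 counts per KD library and 182 to 236 per CON library, and its call was lost without CON-1 (edgeR adjusted p = 0.052).

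Rps27l, the paralog of Rps27 and a target of p53 in human cells, did not pass the test. It had 134, 127 and 138 CPM in KD, against 138, 124 and 132 CPM in CON, which overlap (log2 0.02, SE 0.052, edgeR adjusted p = 0.75). Its direction turned without KD-3 or CON-2, and on library size alone it was called higher (log2 0.25). Rps27rt (log2 -0.36), Rpl6l (-0.32), Rpl32l (0.17) and Rpl36al (0.36) did not pass either, on 6 to 94 counts per library, though Rps27rt passed without KD-3 (log2 -0.57, edgeR adjusted p = 0.025). Rps27rt shares 91.1% of its 50-base windows with Rps27 and Rpl6l shares 76.4% with other genes, so their counts are uncertain. Rpl36al overlaps Gm49383 over 63.1% of its main transcript.

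The ratio of a paralog to its parent within a library needs no scaling between libraries, and 8 pairs were compared with exact two-sided permutation tests, adjusted over the 8. For every 100 Rpl22 counts there were 6.36, 6.78 and 6.59 Rpl22l1 counts in KD, against 10.7, 10.7 and 9.89 in CON, a log2 difference of -0.66. For every 100 Rpl7 counts there were 20.9, 21.9 and 19.95 Rpl7l1 counts in KD, against 28.2, 30.03 and 29.8 in CON (-0.49). In both pairs the paralog was lower relative to its parent and the groups were apart. Rpl3l was higher relative to Rpl3, with 0.466, 0.525 and 0.5005 counts per 100 Rpl3 counts in KD, against 0.188, 0.156 and 0.235 in CON (log2 difference 1.38).

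Rps4l per 100 Rps4x counts was 68.8, 67.8 and 57.7 in KD, against 45.5, 49.97 and 50.2 in CON (log2 difference 0.41). Rps27l per 100 Rps27 counts was 54.7, 52.5 and 52.3 in KD, against 46.9, 47.4 and 49.1 in CON (0.15), a small shift without overlap. Rpl10l per 100 Rpl10 counts was 8.08, 7.95 and 6.58 in KD, against 6.31, 6.44 and 6.53 in CON (0.22), where KD-3 nearly touched CON. In the exact permutation test all 6 of these pairs had p = 0.1, the smallest possible, and an adjusted p of 0.13, so none could pass 0.05. The ratios of Rpl36al to Rpl36a (0.468 ± 0.11 in KD and 0.293 ± 0.079 in CON) and of Rpl39l to Rpl39 (7.42 ± 0.19 in KD and 6.32 ± 0.93 in CON) overlapped between groups, with p and adjusted p of 0.2 in the exact permutation test.

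**Figure D5:**
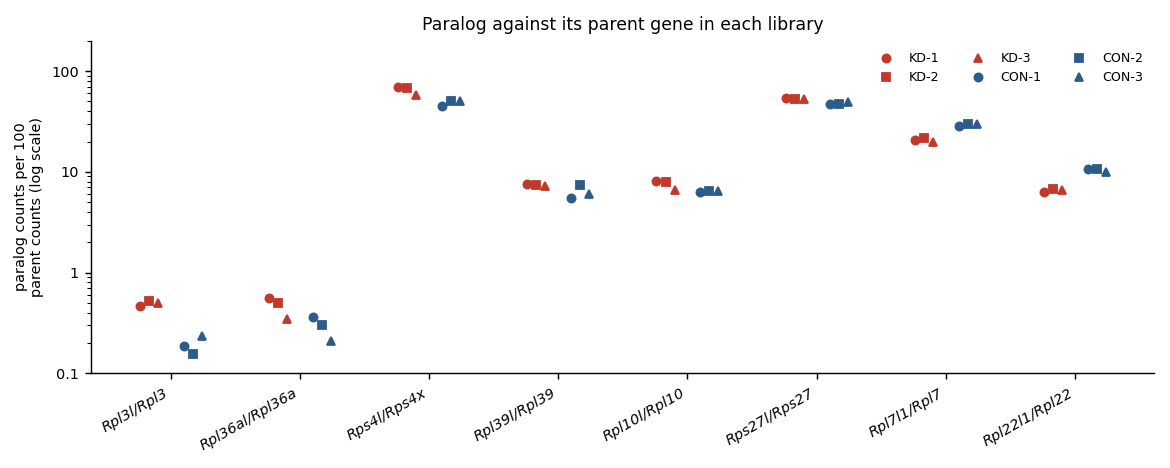
Counts of a paralog per 100 counts of its parent gene in each library, on a log scale, for 8 pairs ordered by their log2 difference, KD left of CON (circle, square and triangle are replicates 1, 2 and 3). KD lies above CON for Rpl3l and Rps4l and below it for Rpl7l1 and Rpl22l1, and the groups overlap for Rpl36al and Rpl39l.

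Rps27l and Rpl39l are shown with their parents as coding sequences (GENCODE M21, GRCm38), since reads can be told apart only where the copies differ. Differing bases are in capitals. Rps27l (gene at chr9:66946086-66949516, plus strand) and Rps27 (chr3:90212522-90213651, minus strand) are 76.1% identical and differ at 61 of 255 bases.
Rps27l: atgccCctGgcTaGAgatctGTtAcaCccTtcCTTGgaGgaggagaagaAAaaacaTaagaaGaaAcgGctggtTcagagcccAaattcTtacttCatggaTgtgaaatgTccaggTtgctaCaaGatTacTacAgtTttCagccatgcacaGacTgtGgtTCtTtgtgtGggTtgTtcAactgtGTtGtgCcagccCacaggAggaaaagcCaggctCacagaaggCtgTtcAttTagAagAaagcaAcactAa
Rps27: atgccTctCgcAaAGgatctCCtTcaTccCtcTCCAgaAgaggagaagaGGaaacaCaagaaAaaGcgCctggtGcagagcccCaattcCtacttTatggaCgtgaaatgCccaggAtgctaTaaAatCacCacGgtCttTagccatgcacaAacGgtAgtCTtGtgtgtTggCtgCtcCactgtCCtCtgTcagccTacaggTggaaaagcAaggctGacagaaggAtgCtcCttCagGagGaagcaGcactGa
Rpl39l (chr16:10170226-10174911, plus strand) and Rpl39 (chrX:37082520-37085402, minus strand) are 85.3% identical and differ at 23 of 156 bases.
Rpl39l: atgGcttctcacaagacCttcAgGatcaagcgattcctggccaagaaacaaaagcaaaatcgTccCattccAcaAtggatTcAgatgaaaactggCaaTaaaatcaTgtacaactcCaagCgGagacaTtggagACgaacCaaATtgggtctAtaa
Rpl39: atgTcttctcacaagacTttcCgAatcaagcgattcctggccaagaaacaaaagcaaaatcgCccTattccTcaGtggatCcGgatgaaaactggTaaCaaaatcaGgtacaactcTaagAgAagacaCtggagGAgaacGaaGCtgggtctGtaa
The differences are spread along Rps27l and Rps27, while Rpl39l and Rpl39 also share a long unbroken run in the earlier part of the coding sequence. Of the 50-base windows of Rps27l 11.2% also occur in another gene, and of those of Rpl39l none do. Identity to the parent was 87.9% for Rpl36al, 84.8% for Rpl10l, 73.2% for Rpl3l, 66.9% for Rpl22l1 and 52.8% for Rpl7l1. Over the canonical genes a median of 24.9% of windows occurred in other genes, many of them processed pseudogenes. Among the 68 canonical genes that are no annotated pseudogene, share at most 50% of windows and overlap another gene by at most 50%, 67 fell and the median was -0.52.

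The lists of other translation genes also held mostly falls, where 30.8% of all genes tested were lower in KD. Of the ribosomal proteins outside the naming rule, Rack1, a signalling scaffold of the small subunit, fell by 0.69 on the log2 scale, and Fau, made as a fusion to a ubiquitin-like protein, by 0.18. On library size alone Rack1 still fell, while Fau did not pass. All 16 other TOP messages of the list fell, from Btf3 (-0.19) to Npm1 (-0.80), with a median of -0.47, and 11 of them fell on library size alone. Eef1a1, which brings tRNA to the ribosome, had 8716 ± 385 CPM in KD and 11949 ± 58.0 CPM in CON (SD, n = 3 each). Of 6 dedicated chaperones of ribosomal proteins with a row, 4 fell, among them Grwd1 (-0.53), a chaperone of Rpl3, and Tsr2 (-0.30), a chaperone of Rps26. Aamp (-0.06) and Heatr3 (0.03) did not pass. On library size alone 2 of the 6 fell (median -0.07), Tsr2 did not pass, and Aamp (0.17) and Heatr3 (0.26) rose.

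Mitochondrial ribosomal protein genes, which serve the separate ribosome of the mitochondrion, were less uniform. There, 33 fell, 15 rose and 31 missed the threshold among the 79 tested (median -0.14). On library size alone 12 fell and 29 rose. Over all genes tested, 30.8% fell and 32.2% rose, and on library size alone 3535 of 18019 fell and 8275 rose. The mitochondrial genes held 0.357% ± 0.0062 of counts in KD and 0.338% ± 0.0023 in CON. The log2 ratio of canonical cytosolic to mitochondrial counts was 4.02, 4.02 and 4.05 in KD, against 4.39, 4.39 and 4.39 in CON, a difference of -0.36 that needs no scaling between libraries (exact permutation p = 0.1, the smallest possible). Rows with -ps names, copies of ribosomal protein genes, held 0.0366% ± 0.00050 of counts in KD and 0.0468% ± 0.0018 in CON. Of the 81 tested, 23 fell and 58 did not pass, where 30.8% of all genes tested fell. On library size alone 12 of these rows fell and 1 rose.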

How the data were processed

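RNA from 3 KD and 3 CON samples was measured by poly(A)-selected RNA-seq. Per the submitters' processing notes, FastQC 0.11.9, STAR 2.5.3a, featureCounts and the build mm10 were used; no source used here gives the strand, multi-mapping and overlap settings. Per the file headers, the authors deposited raw counts per gene, FPKM values, and their own log2 fold changes with a p-value and a false discovery rate. Even numbers made up 70.0% to 71.7% of the deposited counts between 1 and 20; whether both mates of a pair were counted was not tested, and counting error at low values may be larger than the values show. Columns were matched by treatment and number, and 0 were left over.

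Counts were tested with edgeR 4.0.16 in R 4.3.3: filterByExpr, TMM scaling, robust quasi-likelihood F-test of KD over CON across 18019 genes, Benjamini-Hochberg adjustment over all of them, threshold 0.05. The SE is the log2 fold change over the square root of F. For the pool, the same fit used each library's summed canonical counts as library size. Ratios and shares were compared by exact permutation tests in scipy 1.17.1. The script was tested on simulated data. A count was worth 0.0253 to 0.0296 CPM before TMM. Positions and overlaps come from GENCODE M21, in which all 91 members were found and which gave the same gene lengths as the deposited table; promoter windows come from RefSeq (GRCm38.p6). Sequence windows on some chromosomes and for 24 members were not used here.

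The members and gene lists were chosen with earlier results of these data known. Named are every member that rose or did not pass, the 6 largest and 3 smallest changes and the 3 highest CON levels in FPKM of each subunit, every paralog, the 4 largest departures from the pool per direction, and a set picked by role; motif examples, Rpl3, Rps12, Rps10 and Rpl13a were added after their values were seen. A few genes the rule takes are neither named nor drawn here. Replicate numbers are shared by KD and CON, but same-numbered libraries did not deviate together (correlations from -0.061 to 0.015), so they were not treated as pairs. Alternatives were other scalings (DESeq2 1.42.0 size factors, library size only), count filters, the DESeq2 test, counts divided by 2, a gene length correction, a replicate block and each replicate left out.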

Additional observations from a re-analysis of the deposited data

How the results depend on the processing

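On library size alone 3535 genes were lower and 8275 higher in KD over the whole table. There 1 large subunit gene was higher, and 2 paralogs fell and 2 rose. The medians were -0.26 for the large subunit, -0.30 for the small subunit and -0.065 for paralogs. On that scale the estimates of these members named in the report turned positive, without passing: Rpl7 (0.058), Rps27 (0.095), Rps4l (0.059), Rpl27a (0.025), Rps29 (0.032) and Rps28 (0.056). With the gene length trend removed, the medians were -0.51 for the large subunit and -0.18 for paralogs. There 1 large subunit gene was higher, 3 paralogs fell and 2 rose, and the share of all genes called is not given here. Restricted to clearly counted members, a choice made with the data in view, the large subunit median was -0.51. Leaving out each replicate in turn gave 43 to 45 large and 31 to 33 small subunit genes lower, 0 to 1 large subunit genes higher, a large subunit median of -0.51 to -0.47, and, relative to the pool, 9 to 19 canonical genes and 1 to 2 paralogs lower. It also turned Rps27l (from -0.022 to 0.046, negative without KD-3 or CON-2) and Rpl32l (from -0.12 to 0.92, negative without CON-1 or CON-3), neither of which was called. With the replicate block 45 large subunit genes, 32 small subunit genes and 6 paralogs were lower; the numbers do not pair the samples, and Rps27 was the named member that lost its call there (-0.13, edgeR adjusted p = 0.053). The other count filters, DESeq2, DESeq2 size factors and counts divided by 2 kept the direction of every named member they tested (43 of 45 with at least 1 CPM in 3 libraries, 44 with counts divided by 2); among these, DESeq2 ended the call of Rpl24. The cause of these changes was not tested. The share of all genes called is not given for the replicate block or for the fits with a replicate left out. Their member counts therefore cannot be set against the whole table. Depth limits Rpl24, Rpl36al, Rpl6l, Rpl32l and Rps27rt, which had under 100 counts per library.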
